A study of Saccharomyces cerevisiae with 3 samples.

Results

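The genes that make phosphatidylcholine by methylation, those that make and take up inositol, and the regulators that govern both were followed across 3 genotypes of aged haploid yeast. The 10 genes, chosen by name, were *CHO1* (YER026C), *PSD1* (YNL169C), *PSD2* (YGR170W), *CHO2* (YGR157W), *OPI3* (YJR073C), *INO1* (YJL153C), *ITR1* (YDR497C), *INO2* (YDR123C), *INO4* (YOL108C) and *OPI1* (YHL020C). They were chosen with earlier results of these data known. Each had 1 probe set, and all 10 were found among the 5449 *Saccharomyces cerevisiae* genes that the array's annotation names. Total RNA was taken on Day 3 of culture in synthetic complete medium and hybridized to Affymetrix Yeast Genome 2.0 arrays with 1 array per genotype. The paper places Day 3 approximately at the diauxic shift in its results and after the shift in its methods. The genotypes were wild-type, *met15Δ*, which lacks the sulfhydrylase needed to make methionine from sulfide, and *met15Δ rtg3Δ* (here the double mutant), which also lacks the Rtg3 transcription factor of the mitochondrial retrograde response. According to the strain description the BY4741/BY4742 background gave rise to all of them, they share the *his3Δ1*, *leu2Δ0* and *ura3Δ0* alleles, and the *RTG3* deletion carries a *KanMX* marker. How many cultures or clones stand behind each array is not given. Cells with *rtg3Δ* and an intact *MET15* were not analysed here, so that an effect of losing *RTG3* by itself cannot be told apart from an effect on the *met15Δ* state.

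Phosphatidylcholine, a major membrane lipid of yeast, is made along alternative routes. In the methylation route phosphatidylserine is made from CDP-diacylglycerol and serine, decarboxylated to phosphatidylethanolamine and then methylated in successive steps, each of which consumes S-adenosylmethionine, the methyl donor that cells make from methionine. In the Kennedy pathway choline or ethanolamine is attached directly. Phosphatidylinositol is made from the same CDP-diacylglycerol and from inositol, which cells synthesize or import. The genes of both branches carry a common promoter element that is bound by the Ino2-Ino4 activator, and the Opi1 repressor acts on this activator when inositol is plentiful.

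Signals are RMA values per probe set on the linear scale, as the authors deposited them, and a gene was counted as higher or lower when 2 arrays differed at least 2-fold, the cut-off of the methods. With 1 array per genotype the values carry no error, no test was made, and the number of arrays limits the precision. Because the arrays measured RNA of whole cultures, a change per cell and a change in the share of cells with a transcript cannot be told apart. The deleted genes matched the labels. For *MET15* (*MET17* in the annotation) the wild-type array read 2874, against 85.0 and 89.9 for *met15Δ* and the double mutant, and for *RTG3* the arrays with the intact gene read 2703 and 2215 against 28.7 for the double mutant. The 1746 probe sets of another yeast species on the same arrays had medians of 29.4, 29.0 and 29.5, and their highest signals of 273, 273 and 289 serve as the level below which a signal is read only as a bound.

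Cells without *MET15* had more transcript of the 3 genes that make phosphatidylserine and methylate phosphatidylethanolamine, whereas *INO1* and *ITR1* differed by less than 2-fold from wild-type. When *RTG3* was deleted as well, these transcripts did not return to their wild-type signals. *CHO1* and *CHO2* were higher still, and *INO1* and *ITR1* were now several-fold higher too. *CHO2* had the widest range of the 10 genes, 11.5-fold between wild-type and the double mutant. *INO2*, which encodes a subunit of the activator, went the other way and was lower in both mutants. Mating-type genes also differed between these arrays, as given below, so that no ratio over wild-type can be assigned to the loss of *MET15* alone.

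**Figure D1:**
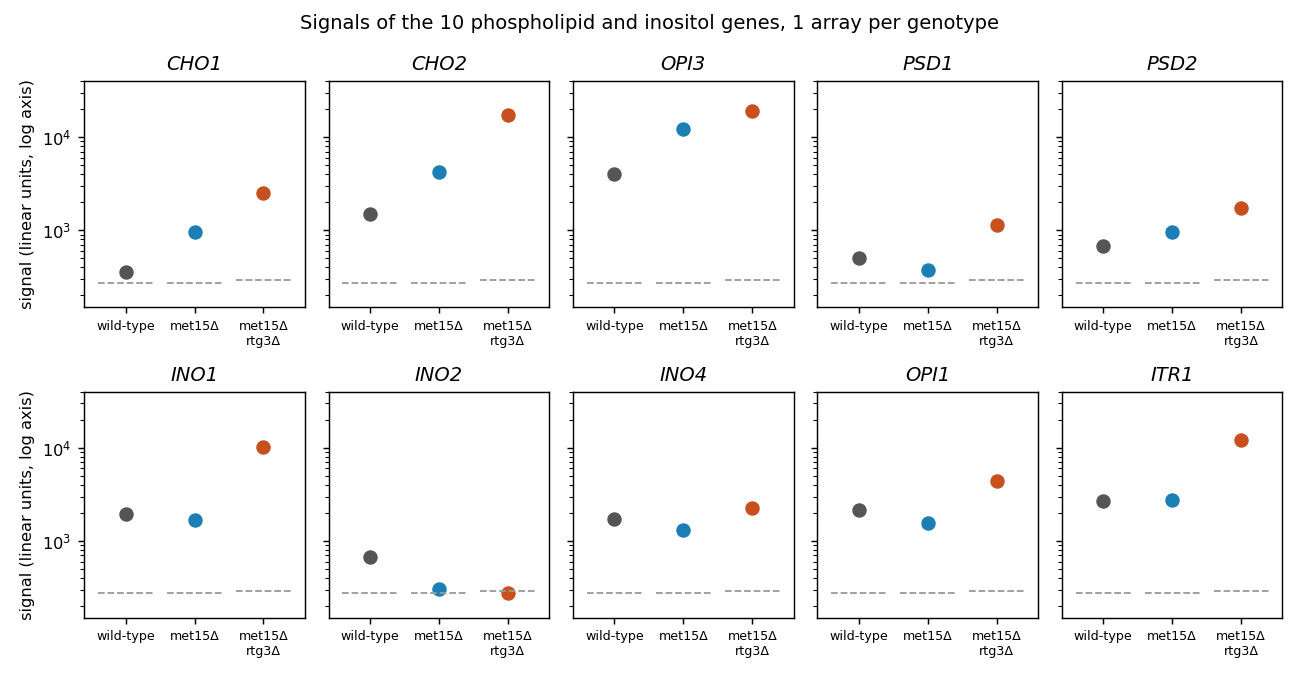
Signal of each of the 10 genes on the array of each genotype (linear units on a log axis, 1 point per array); the dashed lines mark the highest signal among probe sets of another species on that array, 273, 273 and 289. *CHO1*, *CHO2* and *OPI3* step up from wild-type through *met15Δ* to the double mutant (for *OPI3* the second step turns to -0.20 on the log2 scale with scaling to bacterial controls), *INO1*, *OPI1* and *ITR1* are high in the double mutant, and *INO2* sits at or near the dashed lines in both mutants.

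*CHO2* encodes the phosphatidylethanolamine methyltransferase of the first methylation. Wild-type cells gave a signal of 1505, *met15Δ* cells 4253 and the double mutant 17259. The *met15Δ* array was thus 2.83-fold above wild-type, and the double mutant was 4.06-fold above *met15Δ*. Among the 5449 genes, ordered from the highest ratio, *CHO2* stood at place 20 in the double mutant over wild-type.

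*OPI3* encodes the methyltransferase that adds the remaining methyl groups. Its signals, given like all later triplets for wild-type, *met15Δ* and double mutant in turn, were 4013, 12162 and 19261. The *met15Δ* array stood 3.03-fold above wild-type, the largest ratio of the 10 genes in that comparison, but the double mutant was only 1.58-fold above *met15Δ*. The log2 ratios of the methyltransferase genes differed by 0.10 in the first comparison and by 1.36 in the second, where *CHO2* had the larger ratio.

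*CHO1* encodes phosphatidylserine synthase, the entry enzyme of the route. It had signals of 361, 969 and 2504. The ratio was 2.69 for *met15Δ* over wild-type and 2.58 for the double mutant over *met15Δ*, which with scaling to the bacterial controls became log2 ratios of 2.05 and 0.51, and the double mutant was 6.94-fold above wild-type. The wild-type signal lay not far above the 273 of the other species' brightest probe set.

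The decarboxylases that link phosphatidylserine to phosphatidylethanolamine did not follow *CHO1* in *met15Δ* cells. *PSD1*, whose product sits in the mitochondrial inner membrane and makes most of the phosphatidylethanolamine of the cell, had signals of 501, 376 and 1138. The *met15Δ* array was 1.33-fold below wild-type, and the double mutant 3.03-fold above *met15Δ*. *PSD2*, whose product lies in the Golgi and endosomal membranes, had 672, 958 and 1735. Neither of its steps reached 2-fold (1.43 and 1.81), although the double mutant was 2.58-fold above wild-type. The 1.33-fold difference of *PSD1* changes sign with scaling to the bacterial controls (log2 ratio of 0.21).

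*INO1* encodes inositol-3-phosphate synthase, the enzyme that commits glucose 6-phosphate to inositol, and is the best known target of Ino2-Ino4. Its signals were 1932, 1664 and 10268. *ITR1*, the major inositol transporter gene of the plasma membrane, had 2676, 2739 and 11996. Both genes therefore had similar signals in wild-type and *met15Δ* (1.16-fold lower and 1.02-fold higher), in contrast to *CHO1*, *CHO2* and *OPI3*. In the double mutant *INO1* was 6.17-fold and *ITR1* 4.38-fold above *met15Δ*, at places 38 and 87 of the 5449 genes. These were the largest ratios of the 10 genes between the mutants.

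The regulators did not go together. *INO2* encodes the activator subunit that carries the activation domain and is contacted by Opi1. It had signals of 679, 307 and 279, which puts *met15Δ* 2.21-fold and the double mutant at least 2.35-fold below wild-type, the last signal being under the level of 289 set by the other species. No fold is read between the mutants for this gene. *INO4*, the DNA-binding partner of Ino2, stayed within 2-fold in every comparison, with signals of 1730, 1323 and 2232. *OPI1*, the repressor gene, had 2162, 1550 and 4427, a 2.86-fold difference between the double mutant and *met15Δ* and a 2.05-fold one, just past the cut-off, between the double mutant and wild-type. In the double mutant *OPI1* was thus higher than in wild-type, while *INO2* was lower. Transcript signals do not show how much of these proteins was in the nucleus.

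Counted together, 3 of the 10 genes were past 2-fold above wild-type in *met15Δ* (*CHO1*, *CHO2* and *OPI3*) and 1 was lower (*INO2*), against 16.9% and 11.1% of all genes. The median log2 ratio of the 10 was -0.09, beside 0.07 for all genes. Both medians moved together with scaling to the bacterial controls, to 0.53 and 0.69. Between the double mutant and *met15Δ*, 6 of the 10 were higher (*CHO1*, *CHO2*, *PSD1*, *INO1*, *OPI1* and *ITR1*) and none was lower, against 10.4% and 10.6% of all genes, and the median log2 ratio was 1.44 beside -0.02. Comparing the double mutant with wild-type, 8 were higher and 1 was lower, against 21.1% and 17.2%, with a median of 1.77 beside 0.09. Only *INO4* stayed within 2-fold there. These comparisons share arrays, so their counts are not independent of each other. Under the definition in the methods, by which a change is *RTG3*-dependent if it shrinks at least 2-fold in the double mutant, neither the higher signals of *CHO1*, *CHO2* and *OPI3* nor the lower signal of *INO2* qualified. Among the neighbouring genes described below, the authors list *PIS1*, *UPS2*, *HAC1*, *DPP1* and *INP54* as dependent on the retrograde response.

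**Figure D2:**
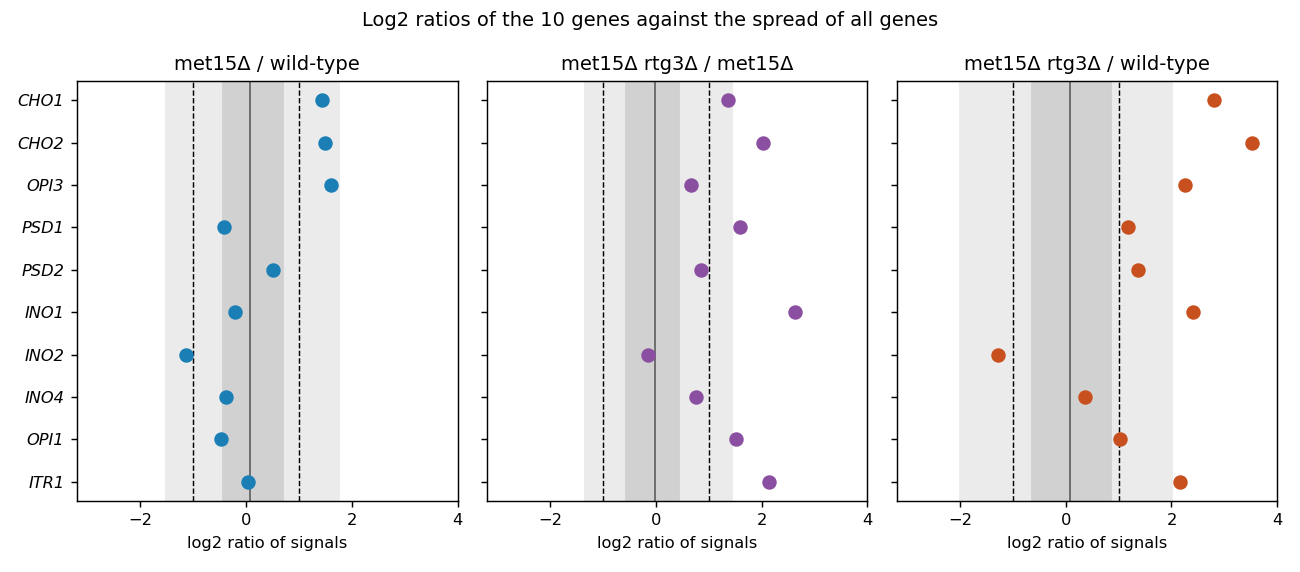
Log2 ratio of signals (horizontal axis) of the 10 genes in the 3 comparisons of genotypes, 1 point per gene; the light band runs from percentile 5 to 95 and the dark band from 25 to 75 of all 5449 genes, the solid line is their median and the dashed lines mark 2-fold. In the middle panel *CHO2*, *PSD1*, *INO1*, *OPI1* and *ITR1* lie to the right of the light band, which ends at 1.44.

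The scaling of the arrays bears on these ratios, since 21 probe sets for control transcripts of bacterial origin had a median log2 ratio of -0.62 for *met15Δ* over wild-type and 0.78 for the double mutant over *met15Δ*. Over the deposited values and 5 other scalings, *CHO1*, *CHO2* and *OPI3* stayed past 2-fold above wild-type in *met15Δ* in all 6 (log2 ratios of 1.04 to 2.05, 1.11 to 2.12 and 1.21 to 2.22). Between the mutants *CHO2* (1.16 to 2.11), *INO1* (1.76 to 2.72) and *ITR1* (1.27 to 2.22) did so too. *CHO1*, *PSD1* and *OPI1* passed in 5 of the 6, but not with scaling to the bacterial controls, where they had log2 ratios of 0.51, 0.74 and 0.65. In that scaling *OPI3*, *PSD2* and *INO4* turned slightly negative between the mutants, with *OPI3* at -0.20. The small ratios of *PSD1*, *INO1*, *INO4*, *OPI1* and *ITR1* in *met15Δ* over wild-type have no settled sign over these scalings. *INO2* was past 2-fold lower in *met15Δ* in 5 of the 6, and in the double mutant over wild-type in all 6. In this last comparison *CHO1*, *CHO2*, *OPI3*, *INO1* and *ITR1* were past 2-fold higher in all 6, *PSD2* in 5, and *PSD1* and *OPI1* in 3 only. The scaling also moved the background: with the bacterial controls 37.2% of all genes were higher and 4.46% lower in *met15Δ*, and 2.40% higher and 44.6% lower in the double mutant than in *met15Δ*, while with 6 reference genes the shares in *met15Δ* were 9.29% and 19.5% and with the median of all probe sets 10.4% and 17.5%. The ratios of the other genes below are given for the deposited values only.

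**Figure D3:**
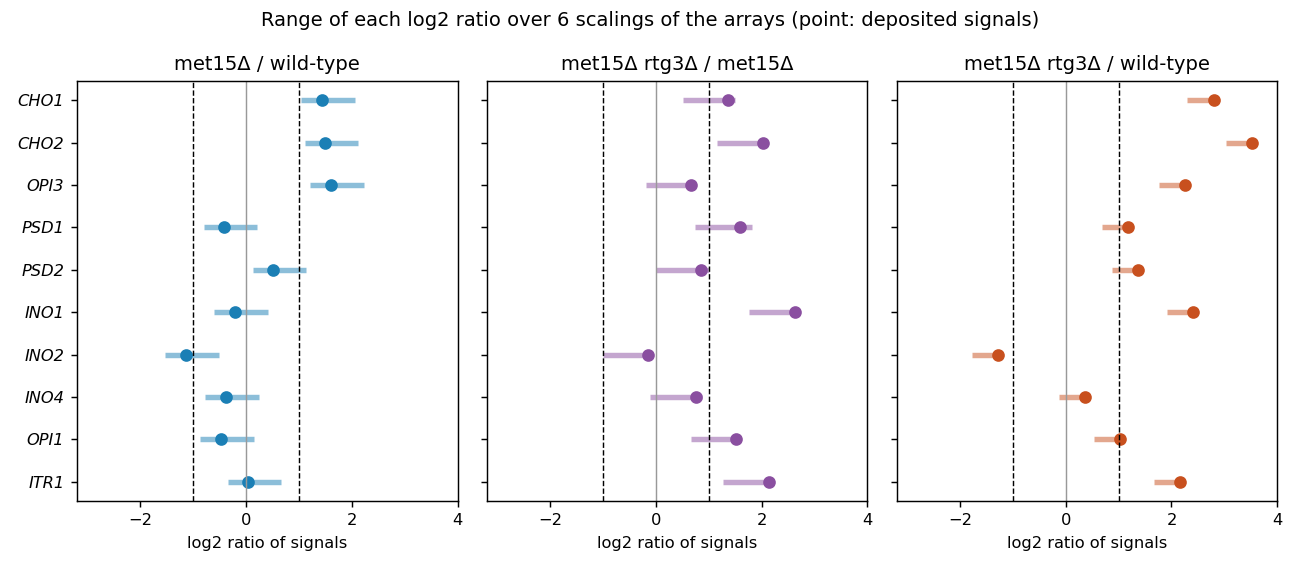
Log2 ratio of signals (horizontal axis) of each of the 10 genes with the deposited values (points) and its range over 6 scalings of the arrays (bars), for the 3 comparisons; dashed lines mark 2-fold. The bars of *CHO1*, *CHO2* and *OPI3* stay right of the 2-fold line in *met15Δ* over wild-type, and those of *CHO2*, *INO1* and *ITR1* do so between the mutants.

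Mating-type genes differed between the same arrays. Of 7 a-specific genes, 6 were past 2-fold above wild-type in *met15Δ* and 5 were higher again in the double mutant, with summed signals of 1950, 13153 and 33107. The 5 lowest of them in wild-type lay under the other species' brightest probe set, *STE2* for instance at 151, against 917 and 4718 in the mutants. The 4 alpha-specific genes had summed signals of 3759, 1917 and 5827, of which *MF(ALPHA)1* gave 344, 101 and 2807. *STE3* had 2157, 454 and 1146 and *SAG1* 1007, 1232 and 1744, while *MF(ALPHA)2* stayed under the other species' level. Among probe sets annotated to genes of the mating-type loci, *HMRA1* had signals of 47.1, 4073 and 5016 and *HMLALPHA1* 977, 71.5 and 59.7. In these genes both mutants differed from wild-type. *HMRA2* had 10278, 3500 and 8293, which is 2.94-fold lower in *met15Δ* but only 1.24-fold lower in the double mutant than in wild-type. The paper lists *HMRA2* beside *HMLALPHA2* and *MATALPHA2*, and states that some probes cannot separate highly similar genes. Signals under these names are therefore not assigned to a single locus. The mating type of each strain profiled is not given in the sources used here. With 1 array per genotype, a difference in mating type cannot be told apart from the loss of *MET15* in any ratio over wild-type. Its part in the differences of the phospholipid genes was not tested.

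Of the neighbouring pathways, 73 genes were measured in 8 lists. In *met15Δ* over wild-type 15 of the 73 were higher and 10 lower, and in the double mutant over *met15Δ* 14 were higher and 8 lower, with median log2 ratios of 0.00 and 0.18. These are 20.5% and 13.7% of the 73, near the 16.9% and 11.1% of all genes, and then 19.2% and 11.0%, beside 10.4% and 10.6%. For 8 of the 15 the wild-type signal was under the other species' level. The 10 genes themselves had medians of -0.09 and 1.44 in these comparisons.

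The Kennedy pathway and the supply of its headgroups held 11 genes. Between the mutants 4 of them were higher and 2 lower (36.4% and 18.2%, beside 10.4% and 10.6% of all genes). For 1 of the 4, *EPT1*, the *met15Δ* signal was under the other species' level, and its bound of 1.51 does not reach 2-fold. Between *met15Δ* and wild-type 2 were higher and 2 lower (18.2% each, beside 16.9% and 11.1%). Both genes higher in *met15Δ* (*CKI1* and *GIT1*) had wild-type signals under the other species' level, and their bounds of 1.98 and 1.13 do not reach 2-fold. *CKI1*, the choline kinase gene, had signals of 245, 541 and 1379, at least 1.98-fold above wild-type in *met15Δ* and 2.55-fold higher again in the double mutant. *CPT1*, the cholinephosphotransferase gene of the last step, had 387, 703 and 1615, which is 4.18-fold from wild-type to the double mutant. *EPT1*, the corresponding ethanolaminephosphotransferase gene, was measured above the other species' level only in the double mutant, at 412. The ethanolamine kinase gene *EKI1* (1382, 523 and 421) was 2.64-fold lower in *met15Δ*. *GDE1*, which encodes a phosphodiesterase that frees choline from glycerophosphocholine, had 5270, 2245 and 870, lower at both steps. Outside the rule for naming, and picked after their values were seen, the choline transporter gene *HNM1* (1091, 631 and 1546) was 2.45-fold higher and *PCT1* (3648, 3586 and 1581), whose product catalyses the rate-limiting step of the pathway, 2.27-fold lower in the double mutant than in *met15Δ*. In the choline arm *CKI1* and *CPT1* were thus higher and *PCT1* lower in the double mutant than in *met15Δ*. The ethanolamine arm was mixed too. There *EKI1* was 1.24-fold lower, *ECT1*, also outside the rule for naming, 1.15-fold higher and *EPT1* at least 1.51-fold higher.

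**Figure D4:**
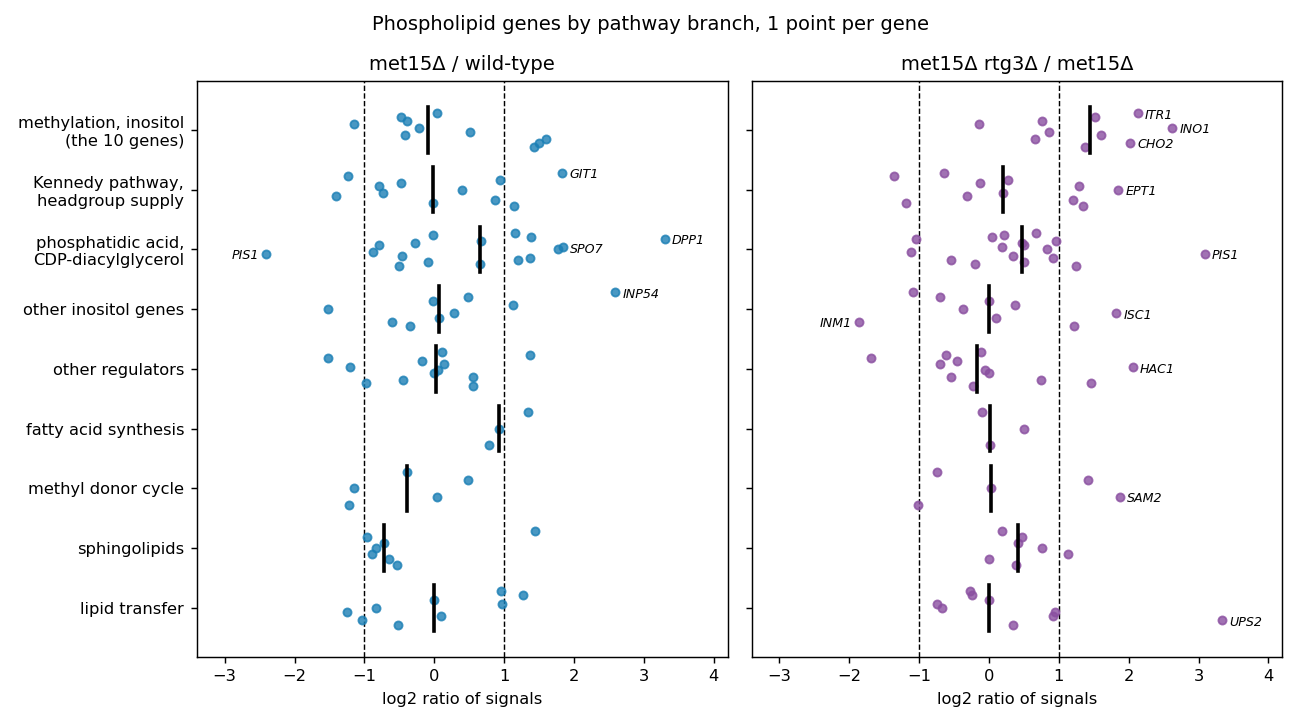
Log2 ratio of signals (horizontal axis) for the 10 genes and for 8 lists of neighbouring pathway genes, in *met15Δ* over wild-type (left) and in the double mutant over *met15Δ* (right), with 1 point per gene, a black bar at each list's median, dashed lines at 2-fold and names for genes beyond a log2 ratio of 1.8 in size. In the right panel the 10 genes have a median of 1.44, while the medians of the 8 lists lie between -0.17 and 0.47.

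Among 17 genes around phosphatidic acid and CDP-diacylglycerol, the precursors shared by all these lipids, 7 were higher and 1 (*PIS1*) was lower in *met15Δ* compared with wild-type. These are 41.2% and 5.88%, beside 16.9% and 11.1% of all genes. For 5 of the 7 the wild-type signal was under the level of the other species, and the bounds of *CDS1* and *NEM1*, 1.65 and 1.49, do not reach 2-fold. *PIS1*, the phosphatidylinositol synthase gene, which draws on the same CDP-diacylglycerol as *CHO1*, had signals of 3933, 741 and 6294. It was 5.31-fold lower in *met15Δ* and 8.49-fold higher in the double mutant than in *met15Δ*, a pattern opposite to that of *CHO1* on the first step and alike on the second. *CDS1*, which encodes CDP-diacylglycerol synthase, had 174, 450 and 849. *PAH1*, the phosphatidic acid phosphatase gene, which sends the precursor to storage lipid, was lower at each step with 5961, 3244 and 1497. The genes of the phosphatase complex that activates Pah1 went the other way, *NEM1* with 120, 407 and 727 and *SPO7* with 163, 585 and 662. *DPP1*, encoding a vacuolar diacylglycerol pyrophosphate phosphatase, had 121, 1188 and 577, which is at least 4.35-fold above wild-type in *met15Δ*.

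Of 9 further genes of inositol and its lipids, 2 were higher and 2 lower in the double mutant than in *met15Δ* (22.2% each, beside 10.4% and 10.6% of all genes). *ITR2*, the gene of the minor inositol transporter, had signals of 2377, 1859 and 4332. It was 2.33-fold higher in the double mutant than in *met15Δ*, below the 4.38-fold of *ITR1*. *INM1*, an inositol monophosphatase gene whose product acts just after Ino1, had 4166, 2743 and 756, 3.63-fold lower in the double mutant than in *met15Δ* and thus the reverse of *INO1*. *ISC1*, encoding a phospholipase C that cleaves inositol sphingolipids, had 231, 281 and 995. The phospholipase gene *PLC1* (14806, 5166 and 3999) was 2.87-fold lower in *met15Δ*. The phosphoinositide phosphatase genes *INP51* and *INP54* were 2.19-fold and 6.01-fold higher in *met15Δ*, and *INP54* (361, 2171 and 1018) was 2.13-fold lower in the double mutant than in *met15Δ*.

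Of the 12 other regulators of the inositol response, 9 stayed within 2-fold in each of the first 2 comparisons (75%, beside 72.0% and 79.0% of all genes) and 11 in the double mutant over wild-type (91.7%, beside 61.7%). *HAC1*, the transcription factor gene of the unfolded protein response, had signals of 12918, 5589 and 23290, which is 2.31-fold lower in *met15Δ* and 4.17-fold higher in the double mutant than in *met15Δ*. The probe set does not report the splicing that activates *HAC1*. *SCS22*, a homologue of the gene for the Scs2 protein that tethers Opi1 to the endoplasmic reticulum, had 1223, 619 and 1698. *SWI1*, encoding a subunit of the SWI/SNF chromatin remodeler, had 6291, 2199 and 683, lower at both steps and 9.21-fold lower in the double mutant than in wild-type. *MOT1*, encoding a remover of TATA-binding protein, was 2.59-fold higher in *met15Δ*.

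Genes that supply the methyl groups went apart. *SAM1* and *SAM2* encode the paired S-adenosylmethionine synthetases. *SAM1* had signals of 18272, 7859 and 3881, lower at both steps (2.33-fold and 2.03-fold). *SAM2* had 1528, 1575 and 5766, with the wild-type and *met15Δ* arrays alike and the double mutant high, the order also seen for *INO1* and *ITR1*. These near-identical genes can share hybridization, so their probe sets are less certain than those of single genes. *SAH1*, whose product removes the S-adenosylhomocysteine left by each methylation, had 5985, 2689 and 2751, 2.23-fold lower in *met15Δ*. *ADO1*, the adenosine kinase gene of the same cycle, had 877, 1221 and 3254. *MET6*, the methionine synthase gene, had 20472, 15576 and 9318. In the double mutant over wild-type *CHO2* and *OPI3* were thus higher, while *SAM1*, *SAH1* and *MET6* were lower and *SAM2* and *ADO1* higher.

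Fatty acid synthesis genes that Ino2-Ino4 also regulate were *FAS1*, *FAS2* and *ACC1*. *ACC1*, the acetyl-CoA carboxylase gene, had signals of 6394, 16240 and 15133, and *FAS2* had 2625, 4991 and 7029. None of the 3 differed 2-fold between the mutants, where 79.0% of all genes also stayed within 2-fold. The 9 genes listed for lipid transfer include *STT4*, a phosphatidylinositol kinase gene, and *SFH1* (YLR321C), one of a chromatin remodeler. Between the mutants 1 of the 9 was higher (11.1%, near the 10.4% of all genes). This was *UPS2*, which encodes the protein that carries phosphatidylserine across the mitochondrial intermembrane space towards Psd1. It had 1909, 930 and 9430, with the double mutant 10.1-fold above *met15Δ*, a larger ratio than that of *PSD1*. *MDM35*, the gene of its binding partner, had 3044, 3246 and 6100. The phosphatidylinositol transfer genes *PDR16* (3895, 1632 and 3155) and *SEC14* (1054, 2538 and 2134) were 2.39-fold lower and 2.41-fold higher in *met15Δ*, and *PDR17* was 2.85-fold lower in the double mutant than in wild-type. Of 7 sphingolipid genes, *AUR1*, which moves inositol phosphate onto ceramide, was 2.19-fold higher in the double mutant than in *met15Δ* (10769, 5822 and 12765), and *CSH1* was at least 1.62-fold above wild-type in *met15Δ*.

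The genes most like each of 4 members were found by the distance between their pairs of log2 ratios (*met15Δ* over wild-type, double mutant over *met15Δ*), over 3 arrays and 5078 genes with a signal of at least 300 on any array. Nearest to *CHO1* were *FET3*, *SIM1*, *YER053C-A*, *YBR053C* and *RTC3* at distances of 0.05 to 0.14, with *CHO2* at place 90 and *OPI3* at 114. Nearest to *CHO2* were *PRY1*, *ASH1*, *SVS1*, *YHB1* and *AIM33* at 0.19 to 0.29, with *CHO1* at place 22. The wild-type signal of *SVS1* lay just under the other species' level. Nearest to *OPI3* were *YGR174W-A*, *GGA1*, *GEP7*, *TIS11* and *TPK2* at 0.06 to 0.08, with *CHO1* at place 289 and *CHO2* at 1275. Nearest to *INO1* were *PTP1*, *RSF1*, *ALG7*, *HO* and *ERG29* at 0.21 to 0.28, with *ITR1* at place 22. Of these, *HO* lay under the other species' level in wild-type and *met15Δ*, and *ALG7* in *met15Δ*. Many genes therefore lay closer to each member than the other members did, and with 3 arrays such likeness is a description only.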

How the data were processed

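Expression was measured in wild-type, *met15Δ* and *met15Δ rtg3Δ* yeast (labelled with the deletions in the other order), 1 array each, on Day 3. The authors background-corrected the scans and RMA-transformed them (RMAExpress 1.0.4), and the deposited values are intensity values per probe set on the linear scale, used unchanged. Which normalization options were set is not stated.

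The array's annotation and a gene table of assembly R64, used for names only, paired probe sets with genes. A single symbol was listed for 7244 of the 10928 probe sets and several for 1, the others had none, and 5498 matched 5449 *S. cerevisiae* genes. Several probe sets of 1 gene entered as their mean log2 signal. Folds against a signal below the brightest probe set of the other species on that array are bounds against the latter.

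Log2 ratios were computed with Python 3.11.15 and pandas 2.3.3, tested on simulated data, and counted past 2-fold. No p-value was computed. The alternatives were 5 scalings (the median of all or of the *S. cerevisiae* probe sets, the bioB, bioC and bioD controls with each mutant set to wild-type, quantile normalization, 6 reference genes), 100 added to each signal, the highest probe set per gene, thresholds of 1.5-fold and 3-fold, and, added after seeing the data, signals raised to the other species' level. A planned search of promoters for motifs was not run.

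The members and lists were chosen with earlier results of these data known. Named were the 10 members, from each list up to 6 genes at least 2-fold apart in any comparison with the widest range, and the 5 genes nearest to *CHO1*, *CHO2*, *OPI3* and *INO1*. Lists were written from general knowledge of yeast.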

Additional observations from a re-analysis of the deposited data

How the results depend on the processing

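With 1 array per genotype no replicate could be left out, and no error limits a ratio. Of 240 ratios of single genes under the alternatives, 225 kept their side of 2-fold, 12 dropped below 2-fold, 3 newly passed it and none past 2-fold changed sign. The 225 include ratios that could not change. Each of the 10 genes had 1 probe set, so the highest probe set per gene left all their ratios as they were. Raising signals to the other species' level could alter only ratios of *INO2*. With scaling to the bacterial controls the number of the 10 genes lower in *met15Δ* than in wild-type was 0 instead of 1 (4.46% of all genes lower), the numbers higher and lower in the double mutant than in *met15Δ* were 3 and 1 (2.40% and 44.6% of all genes), and the median log2 ratios were 0.53 and 0.58. Division by the median of all probe sets left 5 of the 10 higher in the double mutant than in wild-type instead of 8, with 11.2% of all genes higher and 28.8% lower. Adding 100 to each signal left 0 below wild-type in *met15Δ* (9.74% of all genes). At 3-fold, *met15Δ* had 1 above and 0 below wild-type (6.70% and 4.64% of all genes), and 5 were higher and 0 lower in the double mutant than in wild-type (9.65% and 8.28%). The bacterial controls moved the median log2 ratio of all genes to 0.69 in *met15Δ* over wild-type and to -0.89 between the mutants. Quantile normalization, 6 reference genes and the highest probe set per gene gave the same counts within 1.5-fold. Low signals limit *INO2* in the double mutant, *EPT1* and, in wild-type, *CKI1*, *GIT1*, *CDS1*, *NEM1*, *SPO7*, *DPP1*, *CSH1* and *ISC1*.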

Other observations

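Some signals were equal on several arrays. Within 0.1%, 165 of the 5498 *S. cerevisiae* probe sets had the same signal in wild-type and *met15Δ*, 180 in *met15Δ* and the double mutant, and 142 in wild-type and the double mutant. The histone deacetylase gene *RPD3* had 4689, 4689 and 4690, and *CSR1*, *INP52* and *LCB2* had equal signals in both mutants. None of the 10 genes of phosphatidylcholine and inositol synthesis was among them.

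The actin gene *ACT1*, widely used as a reference, had a 2.70-fold higher signal in *met15Δ* than in wild-type, and the reference gene *TAF10* a 2.11-fold lower one in the double mutant than in wild-type.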
